A study of Mus musculus with 10 samples.

Results

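Mouse marrow progenitors that grew without limit under the homeobox gene HoxA9 were compared with progenitors that grew under HoxA9 together with Meis1, across all genes on the array. The arrays were chosen by their titles: 3 clones of HoxA9 cells and 3 clones of HoxA9+Meis1 cells, which are 6 of the 10 arrays of the study. All 6 cultures came from primary marrow progenitors derived in medium with Stem Cell Factor and without GM-CSF, and both groups carry introduced HoxA9, so they differ by their labels in Meis1 alone. Total RNA, prepared with a kit for cytoplasmic RNA, was hybridised to Affymetrix Mouse Genome 430 2.0 arrays, 1 clone per array. The study also held 3 clones immortalized by NUP98-NSD1 and 1 culture immortalized by MLL-ENL. Their arrays entered the fit, the filter on dim signals and the choice of the reading for each gene. The NUP98-NSD1 clones also added to the shared estimate of the spread, to which the single MLL-ENL array cannot add. Whether the clones stem from different mice is not stated in the labels, so the p-values rest on the spread between these cultures, which may be technical.

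HoxA9 is a homeobox transcription factor of blood progenitors, and Meis1 belongs to the TALE class of homeobox proteins, which bind DNA next to Hox proteins together with Pbx partners. In marrow both genes are active in stem and early progenitor cells and are turned off as myeloid cells mature. HoxA9 holds myeloid progenitors in an immature state, and Meis1 is known as the partner that turns such progenitors into a rapidly leukaemic population.

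The array reports a signal on a linear scale for each probe set, a group of probes to 1 transcript. Each gene was read from 1 probe set, and values were compared as log2(signal + 32), so a fold is a fold of signal + 32. A gene was called when limma's adjusted p (Benjamini-Hochberg, over all 14233 genes tested, two-sided) was under 0.05, and only called genes are said to have risen or fallen. A signal under 369, the level of the filter on dim probe sets, is treated as near background. Where all 3 clones of the lower group lay under it, the fold is given as at least the ratio to that level. A log2 difference without a clone is that of the fit. Where the clones left in the lower group all lay under this level, the signals do not fix its size. This holds for Cd34, Wfdc17, E330020D12Rik, Cd48, Gfi1b and Ltb4r1 without their highest HoxA9 clone. It also holds for Gatm, Tgfbr3, Chst13 and Rhoj without their highest HoxA9+Meis1 clone. Signals are listed in the order of clones 1, 2 and 3, with HoxA9 before HoxA9+Meis1.

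The 6 arrays were alike in their technical measures. Spiked-in hybridization controls had a mean log2 signal of 13.17 to 13.41, and the median signal lay between 579 and 660. RNA quality, read as the 3 prime over the 5 prime signal, gave 1.09 to 1.17 for Actb and 0.777 to 0.836 for Gapdh. Over the genes tested, arrays of a group correlated with r of 0.944 to 0.962 among HoxA9 clones and 0.952 to 0.961 among HoxA9+Meis1 clones, against 0.907 to 0.923 between the groups. HoxA9 clone 1 stood apart from clones 2 and 3 most often: 145 genes were at least 4-fold lower in it than in both of them. Results that rest on 1 clone are given with their value without it.

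The introduced genes came first. Hoxa9 was high in every culture and rose in HoxA9+Meis1: its bright probe set read 27259, 43395 and 59375 against 91143, 89613 and 103499 (log2 difference 1.20, SE 0.23, adjusted p = 0.00915). The call of Hoxa9 was lost with the mean of its probe sets (adjusted p = 0.0699). The other Hoxa9 probe set was at background in all 6 arrays, at 25.7 to 50.8. For Meis1, 1 of 3 probe sets separated the groups: it read 16.7, 27.9 and 20.6 in HoxA9 cells and 573, 687 and 558 in HoxA9+Meis1 cells, which is at least 1.58-fold higher (adjusted p = 3.00e-05 over all kept probe sets, of which 6.89% were called). The other Meis1 probe sets differed by -0.16 and -0.20 on the log2 scale and were not called. Whether the Hoxa9 and Meis1 probe sets read the introduced genes or the cell's own was not tested.

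Of 7 genes of the Hox-A cluster tested, 1 rose, Hoxa9, and Hoxa5 (log2 difference 0.04) and Hoxa10 (log2 difference -0.47, 95% interval -1.45 to 0.52) did not pass the test, nor did Hoxa7, which was near background in all 6 arrays. The background for such counts is that 4.61% of all genes tested rose and 5.06% fell. Hoxa5 was read from its brighter probe set, while the dimmer one read 444, 247 and 415 against 239, 117 and 64.1. Hoxa10 was read near the filter level, at 272, 368 and 409 against 396, 272 and 125. Its other probe set read 568, 256 and 486 against 401, 339 and 455. Among 10 TALE cofactor genes 2 rose, and both encode relatives of Meis1. Meis1 itself counts among the 10 as not called, since its brightest probe set was read and not the 1 that separated the groups. Pknox1, a Pbx-binding cofactor also called Prep1, read 5288, 5347 and 5125 against 9042, 9088 and 9617 (log2 difference 0.81, SE 0.11, adjusted p = 0.00189), and each of its 3 probe sets rose by 0.67 to 0.81. Tgif1, a TALE repressor, rose by 0.65 (adjusted p = 0.00641). The call of Tgif1 was lost after a shift of the arrays to a common median (adjusted p = 0.0597). Pbx4 read 52.9, 46.7 and 49.7 against 728, 447 and 109 and was not called (adjusted p = 0.0853), with HoxA9+Meis1 clone 3 near background like the HoxA9 clones. Pbx2 (log2 difference 0.10) and Pbx3 (-0.53), the partners of Meis proteins in myeloid cells, did not pass the test.

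Across the array, 1376 of 14233 genes were called (9.67%), of which 656 were higher in HoxA9+Meis1 and 720 lower. When arrays were shifted to a common median, 759 were called, and 58.8% of them were higher, against 47.7% here. By the log2 difference of the fit, at least a 4-fold difference was reached by 148 of the genes that rose and 123 of those that fell. At least an 8-fold difference was reached by 76 and 53. These counts take in genes near background in 1 group, whose bound can be smaller, as for Klhl30 (log2 difference 4.91, bound 4.02-fold). The largest rises and falls below were ranked by the same log2 difference. The median of all log2 differences was -0.02, and the median size among called genes was 0.85. Of the genes that rose, 49 were under the filter level in all HoxA9 clones, and of those that fell, 45 were under it in all HoxA9+Meis1 clones. The groups did not overlap for 31.2% of all genes. The number called was 770 without HoxA9 clone 2, 911 without HoxA9 clone 3, 788 without HoxA9+Meis1 clone 1 and 748 without HoxA9+Meis1 clone 2, and 773 with the same spread assumed at every intensity. Among 346 genes with several called probe sets, 1 had probe sets called in opposite directions, the myelin gene Mbp (-0.44 and 2.47). Probe sets that carry several gene names or none were called in 183 of 5486 cases (3.34%).

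**Figure D1:**
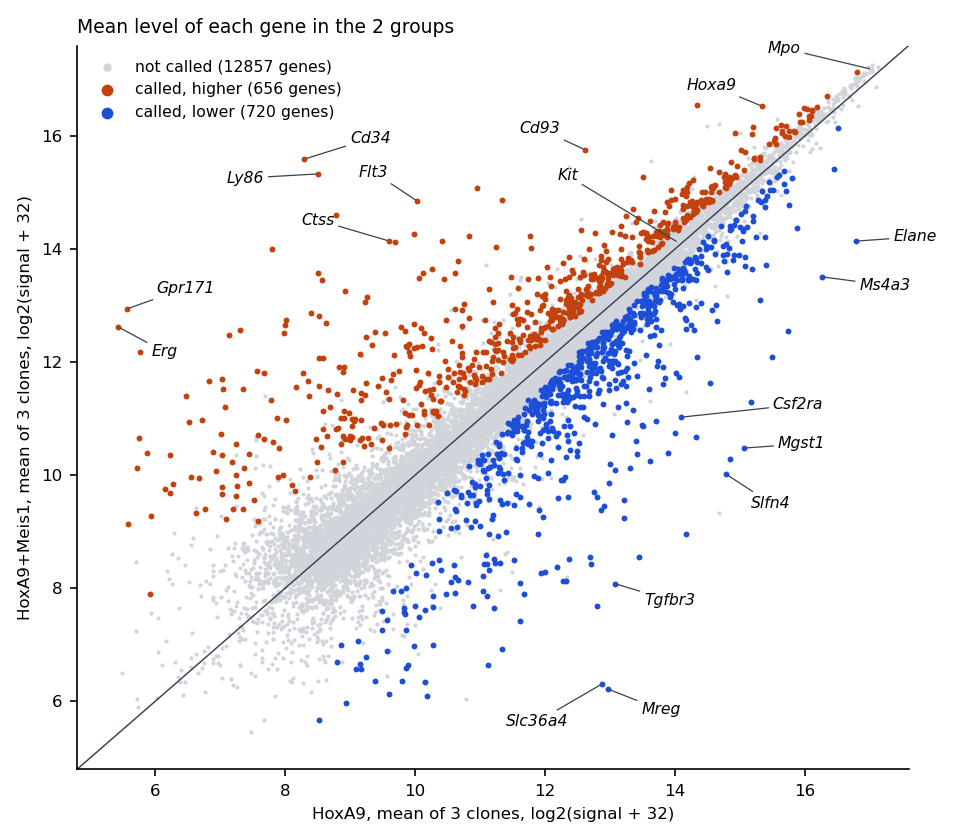
Mean log2(signal + 32) of each gene in the 3 HoxA9 clones (horizontal axis) and in the 3 HoxA9+Meis1 clones (vertical axis), 1 point per gene, with 656 called higher in orange, 720 called lower in blue and the others in grey. Most genes lie near the diagonal, while Cd34, Erg and Gpr171 lie far above it and Mreg and Slc36a4 far below.

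Of the 3 genes that rose most, Gpr171 and Erg were near background in every HoxA9 clone and Cd34 in 2 of 3. Gpr171, an orphan G protein-coupled receptor, read 5.77, 31.8 and 12.2 against 9031, 10002 and 5321 (adjusted p = 1.87e-05), at least 19.6-fold higher. Cd34, the sialomucin that marks stem and progenitor cells, read 97.8, 93.9 and 1845 against 48216, 48720.3 and 50766 (log2 difference 7.30, SE 0.86, adjusted p = 7.24e-04), a 157-fold rise in which HoxA9 clone 3 was above the other HoxA9 clones. Cd34 gave 6.66 without HoxA9 clone 1, 6.64 without HoxA9 clone 2 and 8.59 without HoxA9 clone 3. Erg, an Ets transcription factor needed for blood stem cells, read 13.6, 10.9 and 8.61 against 5730.1, 5966 and 7252 (adjusted p = 3.59e-08), at least 15.7-fold higher. Its clones were close to each other in both groups.

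Immune and secreted proteins followed. Ly86, which escorts a Toll-like receptor relative to the surface of B cells and macrophages, read 106, 532 and 596 against 47073, 40593 and 36405 (log2 difference 6.82, SE 0.52, adjusted p = 4.94e-05). Ly86 gave 6.11 without HoxA9 clone 1. Wfdc17, a small secreted antiprotease of myeloid cells, read 74.9, 163 and 499 against 11484, 18943 and 20285 (log2 difference 6.20, SE 0.49, adjusted p = 6.52e-05). Wfdc17 gave 6.83 without HoxA9 clone 3. In both genes the lowest HoxA9+Meis1 clone was far above the highest HoxA9 clone. Flt3, the receptor kinase of early lymphoid and myeloid progenitors, read 1047, 702 and 1429.9 against 34997, 30939 and 23470.2 (log2 difference 4.81, SE 0.28, adjusted p = 1.38e-05), a 28.0-fold rise. Ifitm1, an interferon-induced membrane protein, read 549, 145 and 807 against 25937, 76099 and 7649.7 (log2 difference 5.81, adjusted p = 0.00112). The HoxA9+Meis1 clones spread widely for Ifitm1, with clone 2 highest and clone 3 lowest, yet none reached down to a HoxA9 clone. Ifitm1 gave 5.15 without HoxA9 clone 2, 4.998 without HoxA9+Meis1 clone 2 and 6.65 without HoxA9+Meis1 clone 3.

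Regulators of transcription stood among the largest rises as well. Aff3, a lymphoid member of the family of elongation scaffolds, read 111, 126 and 93.3 against 5551, 6815 and 4758 and was at least 14.1-fold higher (adjusted p = 1.47e-05), while its other probe set gave 0.74 and did not pass (adjusted p = 0.374). Ell2, a transcription elongation factor, read 71.0, 27.6 and 81.8 against 2327, 2570.0 and 3193 and was at least 6.74-fold higher (adjusted p = 2.47e-05). Both were under the filter level in every HoxA9 clone. Ddx4, an RNA helicase of germ cells, read 11.8, 7.64 and 61.0 against 1919, 6429 and 7956 (adjusted p = 2.71e-04). Its bound was 11.6-fold, and 17.9-fold without HoxA9+Meis1 clone 1.

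The other members of the 15 largest rises were of several kinds. Plxnb2, a semaphorin receptor, read 45.6, 185 and 199 against 7894, 7450.2 and 3757 and was at least 15.1-fold higher (adjusted p = 2.93e-04). Olfm1, a secreted olfactomedin protein, read 78.3, 52.6 and 125 against 5011, 6302 and 1031 (adjusted p = 0.00183), and 3 of its probe sets were called. Its bound was 8.07-fold, and 14.1-fold without HoxA9+Meis1 clone 3, the lowest of the group. Klhl30, a kelch-like protein, read 29.7, 18.7 and 17.5 against 3682, 1828 and 575 and had a bound of 4.02-fold (adjusted p = 0.0011), or 2.65-fold without HoxA9+Meis1 clone 1 and 6.55-fold without clone 3. E330020D12Rik, an unnamed locus, rose by 5.06 on the log2 scale (adjusted p = 5.84e-04). E330020D12Rik gave 5.75 without HoxA9 clone 2. S100a9, which forms calprotectin with S100a8 in neutrophils, read 621, 69.2 and 793 against 36682, 21773 and 1708 (log2 difference 4.88, SE 1.05, adjusted p = 0.0165). It was high in HoxA9+Meis1 clones 1 and 2 and near the HoxA9 level in clone 3. The call of S100a9 was lost with HoxA9 clone 2 and HoxA9+Meis1 clones 1 and 2 left out in turn (log2 3.93 to 4.40, adjusted p 0.0593 to 0.0712) and with 3 other settings (adjusted p 0.0612 to 0.074), and its log2 difference was 6.22 without HoxA9+Meis1 clone 3.

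**Figure D2:**
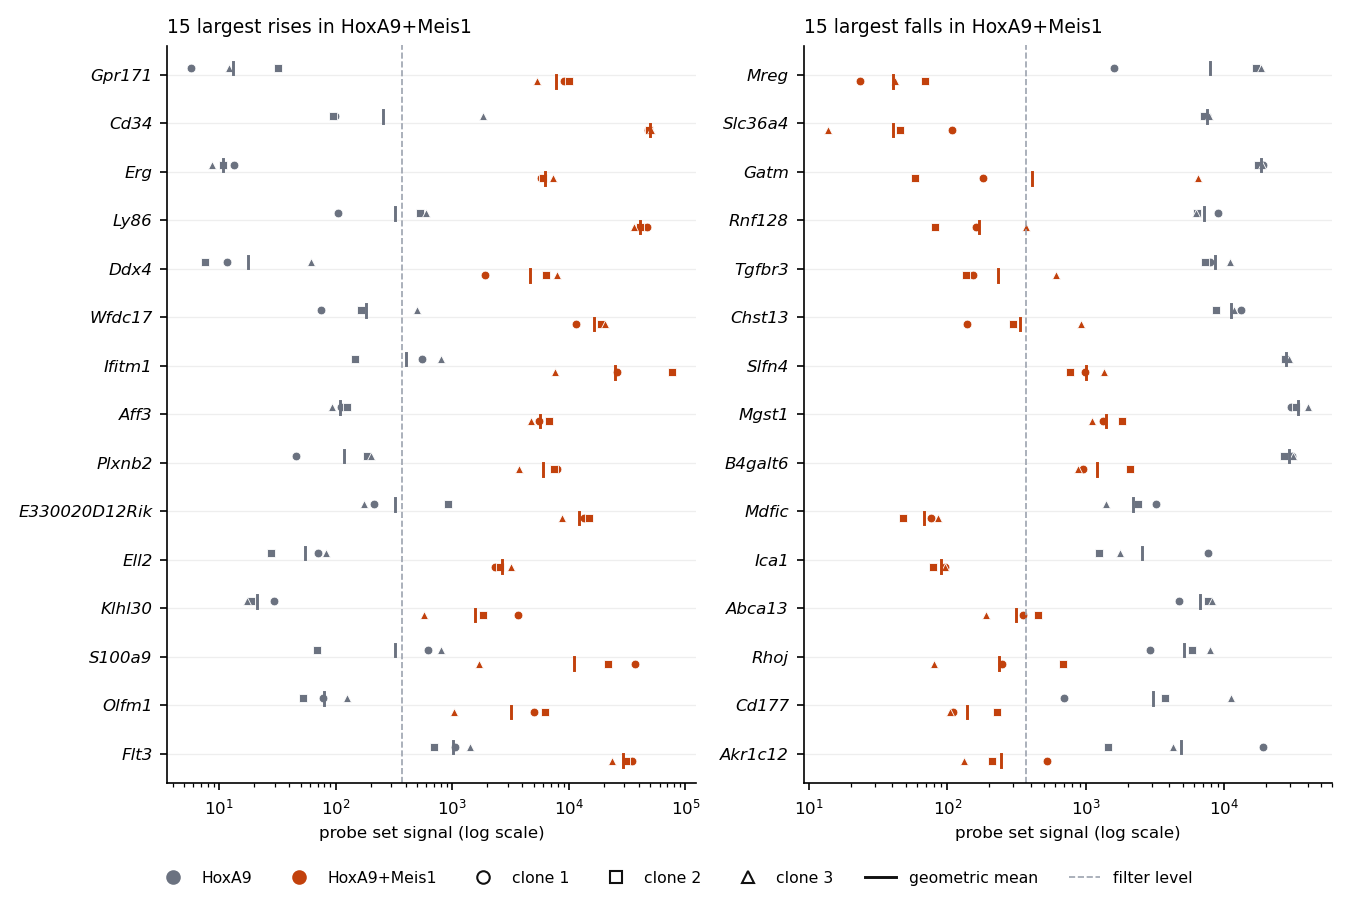
Signal of the 15 largest rises and the 15 largest falls (log horizontal axis) in each of the 3 HoxA9 clones (grey) and the 3 HoxA9+Meis1 clones (orange), with clones 1, 2 and 3 as circle, square and triangle, the geometric mean as a vertical mark and the filter level of 369 as a dashed line. For Cd34, Erg and Flt3 the groups are far apart, with HoxA9 clone 3 above the other HoxA9 clones for Cd34, while S100a9 and Gatm have 1 HoxA9+Meis1 clone close to the HoxA9 clones.

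The largest falls took in granule-stage genes, enzymes and transporters. Mreg, which moves melanosomes and lysosomes, read 1608, 17030.3 and 18302 against 23.4, 68.3 and 42.1 (adjusted p = 0.00103). Its bound was 19.9-fold, 44.1-fold without HoxA9 clone 1, the lowest of its group, and 13.2-fold without clone 3. Slc36a4, an amino acid transporter, read 7462, 7162 and 7790.3 against 108, 45.1 and 13.6 (adjusted p = 3.22e-05), at least 18.7-fold lower. All HoxA9+Meis1 clones were near background for Slc36a4. Mgst1, a microsomal glutathione transferase of immature granulocytes, read 30536, 32859 and 40245 against 1319, 1839 and 1117 (log2 difference -4.59, SE 0.19, adjusted p = 1.31e-06), a 24.1-fold fall.

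B4galt6, which makes lactosylceramide, read 30618, 27105 and 31173 against 959, 2099.8 and 872 (log2 difference -4.58, SE 0.33, adjusted p = 3.38e-05), a 23.9-fold fall that 4 probe sets showed. Slfn4, a schlafen gene of myeloid cells, read 27647, 27408 and 29383 against 979, 769 and 1353 (log2 difference -4.76, SE 0.54, adjusted p = 5.87e-04), a 27.1-fold fall. Both genes stayed well above background in HoxA9+Meis1 cells. Tgfbr3, the TGF-beta co-receptor betaglycan, read 7929.7, 7239 and 11027 against 154, 136 and 604 (log2 difference -4.99, SE 0.53, adjusted p = 4.05e-04). Tgfbr3 gave -5.61 without HoxA9+Meis1 clone 3. The dimmer Tgfbr3 probe set differed by -0.96 without a call (adjusted p = 0.506). Chst13, a chondroitin sulfotransferase, read 13292, 8784 and 11724 against 138, 299 and 924 (log2 difference -4.88, adjusted p = 5.00e-04). Chst13 gave -5.55 without HoxA9+Meis1 clone 3. Rnf128, a ubiquitin ligase, read 9038, 6332 and 6223 against 162, 81.1 and 371 (log2 difference -5.11, adjusted p = 1.36e-04). HoxA9+Meis1 clone 3 was the highest of its group for Tgfbr3, Chst13 and Rnf128, and it was still far below every HoxA9 clone.

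Abca13, a lipid transporter, read 4694, 7660.4 and 8188 against 354, 448 and 189.7 (log2 difference -4.28, adjusted p = 5.71e-04). Mdfic, a regulator of transcription, read 3197, 2363 and 1391 against 75.5, 47.8 and 85.4 (adjusted p = 0.00112), at least 5.54-fold lower. Rhoj, a small GTPase, fell by 4.19 on the log2 scale (adjusted p = 0.00274). Rhoj gave -4.86 without HoxA9+Meis1 clone 2 and -3.53 without HoxA9+Meis1 clone 3. Ica1, a protein of vesicle transport, read 7662, 1238 and 1753 against 95.6, 79.1 and 95.6 (adjusted p = 8.42e-04). It was high in HoxA9 clone 1: its bound was 6.46-fold and 3.75-fold without that clone. Akr1c12, an aldo-keto reductase, read 18895, 1456 and 4275 against 524, 208 and 132 (log2 difference -4.14, adjusted p = 0.00839) and was also highest in HoxA9 clone 1. Akr1c12 gave -3.18 without HoxA9 clone 1 and -5.01 without HoxA9 clone 2.

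A pair of the 15 largest falls rested on uneven clones. Gatm, the first enzyme of creatine synthesis, read 18896, 17578 and 18593 against 181, 58.2 and 6473 (log2 difference -5.20, SE 1.19, adjusted p = 0.0212), with HoxA9+Meis1 clone 3 far above the other clones of its group. The call of Gatm was lost with HoxA9 clones 1, 2 and 3 and HoxA9+Meis1 clones 1 and 2 left out in turn (log2 -5.23 to -3.97, adjusted p 0.0521 to 0.0869) and with 4 other settings (adjusted p 0.0521 to 0.0836), and its log2 difference was -7.05 without HoxA9+Meis1 clone 3. Cd177, a neutrophil surface protein, read 692, 3757 and 11108 against 110.4, 228 and 104 (adjusted p = 0.0289), with a bound of 7.79-fold that was 16.2-fold without HoxA9 clone 1 and 4.13-fold without HoxA9 clone 3. The call of Cd177 was lost with HoxA9 clones 2 and 3 and HoxA9+Meis1 clones 1, 2 and 3 left out in turn (adjusted p 0.0656 to 0.0972) and without the intensity trend and with robust eBayes (adjusted p 0.0773 to 0.0852).

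Promoters of these 30 genes are shown for 4 of them, because they are the highest-ranked that hold a letter pattern of the introduced factors. RefSeq's promoter table (build GRCm38.p6, 250 bases before to 50 after the start) held 26 of the 30 genes. It was searched on both strands for TGACAG, the MEIS core site, and TGATNNAT, a PBX-HOX site, and these patterns do not overlap in the promoters printed. Capitals mark the matches.
Erg promoter, chr16:95459299-95459598, minus strand: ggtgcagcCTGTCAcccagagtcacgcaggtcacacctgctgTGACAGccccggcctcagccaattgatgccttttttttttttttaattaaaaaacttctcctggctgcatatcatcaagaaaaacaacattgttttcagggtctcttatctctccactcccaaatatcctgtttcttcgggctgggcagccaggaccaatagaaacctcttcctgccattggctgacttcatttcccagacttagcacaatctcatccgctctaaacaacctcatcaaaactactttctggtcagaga
Wfdc17 promoter, chr11:83703806-83704105, plus strand: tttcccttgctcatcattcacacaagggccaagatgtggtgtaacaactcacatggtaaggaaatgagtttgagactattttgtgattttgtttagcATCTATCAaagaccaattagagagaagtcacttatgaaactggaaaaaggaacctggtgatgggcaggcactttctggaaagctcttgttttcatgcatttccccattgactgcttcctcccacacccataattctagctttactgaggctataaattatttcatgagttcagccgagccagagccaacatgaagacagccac
Slc36a4 promoter, chr9:15709488-15709787, plus strand: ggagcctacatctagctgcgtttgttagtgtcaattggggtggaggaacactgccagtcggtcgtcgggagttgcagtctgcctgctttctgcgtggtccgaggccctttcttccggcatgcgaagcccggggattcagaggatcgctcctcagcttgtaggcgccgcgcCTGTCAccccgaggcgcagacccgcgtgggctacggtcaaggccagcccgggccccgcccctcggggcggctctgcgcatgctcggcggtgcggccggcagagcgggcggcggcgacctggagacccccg
Mgst1 promoter, chr6:138140277-138140576, plus strand: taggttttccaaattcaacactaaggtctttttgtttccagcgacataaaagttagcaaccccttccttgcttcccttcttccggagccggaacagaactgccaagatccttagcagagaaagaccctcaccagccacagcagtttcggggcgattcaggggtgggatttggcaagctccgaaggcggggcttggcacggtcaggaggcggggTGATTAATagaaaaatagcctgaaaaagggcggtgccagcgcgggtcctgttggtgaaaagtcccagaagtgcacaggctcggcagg

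The Erg promoter, 1 of 3 in the table for this gene, holds TGACAG on each strand. Wfdc17 holds TGATNNAT read from the reverse strand, Slc36a4 holds TGACAG read from the reverse strand, and the Mgst1 promoter, 1 of 2 for the gene, holds TGATTAAT. No match was found in these windows for Cd34 and Flt3. TGACAG stood in 15.9% of 724 promoters of genes that rose, in 20.7% of 774 promoters of genes that fell and in 17.2% of 14495 promoters of all genes tested. The shares for TGATNNAT were 5.52%, 5.17% and 4.97%. Over all 32851 promoters of the table, which also holds genes not tested here, the shares were 19.2% and 8.85%. A match is a run of letters and was not tested as a binding site.

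Genes that other work ties to Meis1 and HoxA9 in leukaemia were called in 1 direction: 8 of 21 rose and 0 fell (0 fell also at an unadjusted p under 0.05), with a median log2 difference of 0.39 against -0.02 over all genes, of which 4.61% rose. The list was compiled with earlier results of these data known, so its direction is no independent evidence. Left-out clones and other settings gave 7 to 9 rises and 0 falls, apart from 1 fall with quantile normalization. Besides Cd34, Erg and Flt3, they were Ccl3, Ccl4, Bcl2, Mef2c and Lmo2. Mef2c, a MADS-box factor of lymphoid and leukaemic progenitors, read 10346, 11160.4 and 11635 against 26564, 24463 and 21466 (log2 difference 1.12, SE 0.09, adjusted p = 8.65e-05). Lmo2, a bridging protein of stem cell transcription complexes, read 18574, 18765 and 18689.7 against 33392, 29929 and 35604 (log2 difference 0.82, SE 0.09, adjusted p = 6.67e-04). In both genes the clones of a group were close to each other and the groups did not overlap. Sox4 read 29931, 34772 and 34061 against 69322, 72304 and 61385 and was not called (log2 difference 1.04, adjusted p = 0.0544) although its groups did not overlap. Myb (-0.10), Myc (0.39), Cdk6 (0.11), Msi2 (-0.02) and Trib2 (-0.63) did not pass the test.

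Of 23 genes of stem and progenitor cells, 7 rose and 1 fell, with a median of 0.07, and the summed signal of the list was 137630 to 142730 in HoxA9 clones and 236130 to 253350 in HoxA9+Meis1 clones. A large part of that difference is Cd34, with a mean of 679 in HoxA9 and 49234 in HoxA9+Meis1 clones. Cd34 is also counted in the leukaemia list above. Cd27, a tumour necrosis factor receptor of early progenitors and lymphocytes, read 352, 66.3 and 402 against 7739.6, 10084 and 2553 (log2 difference 4.53, adjusted p = 0.00169). Cd27 gave 3.85 without HoxA9 clone 2 and 5.12 without HoxA9+Meis1 clone 3. Adgrg1, an adhesion receptor of stem cells, read 383, 257 and 375 against 4798, 5610.5 and 2935 (log2 difference 3.56, adjusted p = 0.00112). Angpt1, the ligand of the Tek receptor, read 50.8, 404 and 265 against 2199.5, 2064 and 3543 (log2 difference 3.54, adjusted p = 0.00465). Angpt1 gave 2.83 without HoxA9 clone 1. Cd48, a surface protein that appears as stem cells differentiate, read 2862, 28.9 and 66.8 against 5772, 9101 and 6106 (log2 difference 4.73, adjusted p = 0.0245), with HoxA9 clone 1 far above clones 2 and 3. The call of Cd48 was lost with HoxA9 clones 2 and 3 and HoxA9+Meis1 clones 1, 2 and 3 left out in turn (log2 3.69 to 4.85, adjusted p 0.0546 to 0.0893) and with 4 other settings (adjusted p 0.0574 to 0.092), and its log2 difference was 6.47 without HoxA9 clone 1. Prom1, the membrane protein prominin-1, fell: it read 1169, 2604 and 3335 against 449, 197 and 344 (log2 difference -2.67, adjusted p = 0.0125). The call of Prom1 was lost with HoxA9 clone 2 and HoxA9+Meis1 clone 2 left out in turn (log2 -2.54 to -2.37, adjusted p 0.0515 to 0.054). Kit, the receptor of Stem Cell Factor and so of the growth factor in the medium, read 18944, 17607 and 14446 against 18561, 16810.2 and 17906 and did not pass the test (log2 difference 0.07, adjusted p = 0.904, 95% interval -0.33 to 0.47). Gata2 (1.36, adjusted p = 0.0695), Tal1 (-1.69, adjusted p = 0.0757) and Runx1 (0.48) did not pass either.

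**Figure D3:**
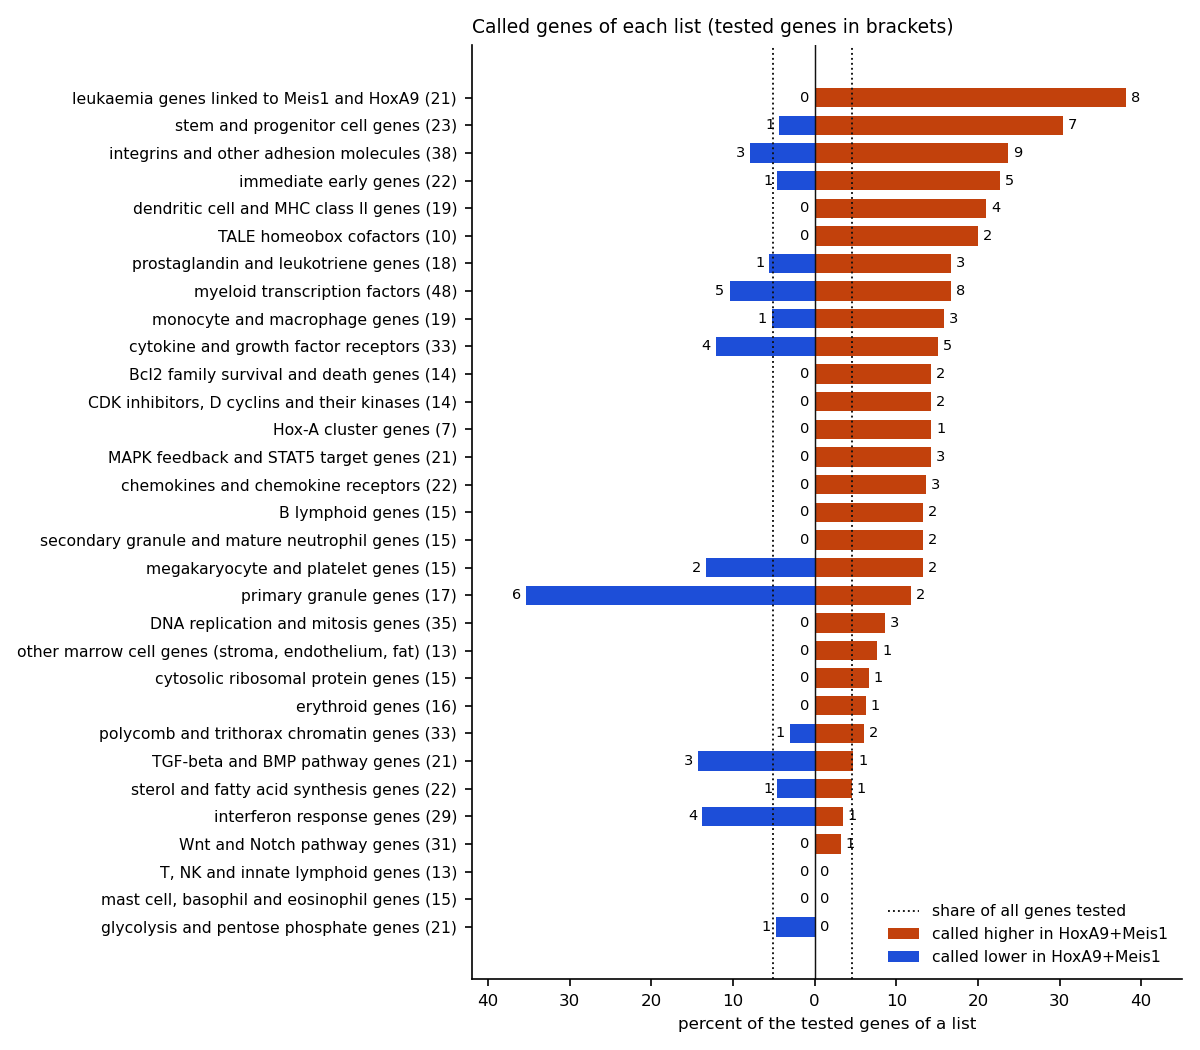
Percent of each gene list's tested members that were called higher (orange, to the right) or lower (blue, to the left) in HoxA9+Meis1 than in HoxA9, with counts at the bar ends and dotted lines at the shares of all genes, 4.61% and 5.06%. Leukaemia, stem cell and adhesion genes reach furthest to the right. The primary granule list, which also holds other genes of myeloid precursors, reaches furthest to the left.

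Primary granules are the lysosome-like granules that promyelocytes make. The list named after them also holds membrane proteins and an enzyme of myeloid precursors, and it gave the opposite picture in part. Of its granule proteases Elane fell, while Prtn3 and Ctsg were not called, nor was the granule enzyme Mpo. Of 17 genes, 6 fell and 2 rose, with a median of -0.29, and the summed signal was 936820 to 960620 in HoxA9 clones against 648530 to 686900 in HoxA9+Meis1 clones. In bulk RNA, fewer cells of a type and less RNA per cell cannot be told apart. Elane, neutrophil elastase, read 114550, 116367 and 106958 against 16717, 25137 and 13902 (log2 difference -2.64, SE 0.19, adjusted p = 3.28e-05), a 6.24-fold fall. Ms4a3, a membrane protein of granulocyte and monocyte progenitors, read 75388, 71783 and 89109 against 10516, 12256 and 12169 (log2 difference -2.75, SE 0.15, adjusted p = 1.27e-05). Igsf6, a receptor of myeloid cells, read 21354, 22841 and 27321 against 3019, 3671 and 2836 (log2 difference -2.90, SE 0.28, adjusted p = 2.17e-04). For each of these genes the lowest HoxA9 clone was far above the highest HoxA9+Meis1 clone. Clec5a, a myeloid lectin receptor, read 12990.2, 13159 and 14891 against 6736, 3597 and 2892 (log2 difference -1.72, adjusted p = 0.0074), and Mgst1 fell as described.

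Other granule genes of the same stage moved less or upward. Srgn, the core protein of the granule proteoglycan, fell by 0.37 (adjusted p = 0.00318). The call of Srgn was lost after a shift of the arrays to a common median and without the intensity trend (adjusted p 0.0508 to 0.364). Nkg7, a granule membrane protein of cytotoxic cells, rose from near background: it read 127, 112 and 124 against 843, 1216 and 619 (adjusted p = 5.87e-04), at least 2.22-fold higher. Ctsc, which activates granule proteases, rose by 0.47 (adjusted p = 0.00943). The call of Ctsc was lost with 3 other settings (adjusted p 0.0543 to 0.875). Mpo, myeloperoxidase, was among the brightest genes in every clone, read 132165, 142660 and 126200 against 148102, 145387 and 151814, and did not pass the test (log2 difference 0.15, adjusted p = 0.31, 95% interval -0.03 to 0.33). The proteases Prtn3 (-0.29, 95% interval -0.53 to -0.05) and Ctsg (-0.23, 95% interval -0.45 to -0.01), which share the granule with elastase, did not pass either. Lyz2, lysozyme, gave -1.22 (adjusted p = 0.122).

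Of 33 genes of growth factor and cytokine receptors 5 rose and 4 fell, with a median of 0.04, and all 4 falls were called under every alternative run. Csf2ra, the binding chain of the GM-CSF receptor, read 16953, 15957 and 19735 against 1269, 3424 and 1981 (log2 difference -3.07, SE 0.39, adjusted p = 0.0011), and its other probe set gave -2.46. Csf3r, the G-CSF receptor, read 4865, 6149.6 and 9302 against 3172, 2385 and 3062 (log2 difference -1.19, adjusted p = 0.00565). Ifngr1, a chain of the interferon gamma receptor, read 43759.9, 43281 and 27495 against 13781, 13364 and 11233 (log2 difference -1.55, adjusted p = 7.05e-04). Tnfrsf1b, the second tumour necrosis factor receptor, read 6839, 8354 and 11514 against 3259.5, 3402 and 2336 (log2 difference -1.55, adjusted p = 0.00244). In these receptors every HoxA9 clone was above every HoxA9+Meis1 clone. The chain that GM-CSF shares with interleukin-3, Csf2rb, gave -0.24, and Il3ra gave -0.11, both without a call.

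The receptors that rose were Flt3, Cd27, Il7r, Il6st and Il17ra. Il7r, the interleukin-7 receptor of lymphoid progenitors, read 640.4, 493 and 234 against 7093, 5883 and 1326 (log2 difference 3.08, adjusted p = 0.00788), with HoxA9+Meis1 clone 3 well below clones 1 and 2. Il7r gave 3.83 without HoxA9+Meis1 clone 3. Il6st, the signalling chain that interleukin-6 receptors share, read 4619, 4163 and 4248 against 10372, 16228 and 6719 (log2 difference 1.26, adjusted p = 0.0165). The call of Il6st was lost with HoxA9 clones 2 and 3 and HoxA9+Meis1 clone 1 left out in turn (log2 1.23 to 1.26, adjusted p 0.0518 to 0.0596) and without the intensity trend (adjusted p = 0.0599). Il17ra rose by 0.96 (adjusted p = 0.0154). The call of Il17ra was lost with HoxA9 clone 2 and HoxA9+Meis1 clones 1 and 2 left out in turn (log2 0.83 to 0.91, adjusted p 0.0622 to 0.0655) and without the intensity trend (adjusted p = 0.0561).

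Myeloid transcription factors moved both ways: of 48, 8 rose and 5 fell (median 0.23), and 5 to 9 rose without 1 clone, the fewest without HoxA9+Meis1 clone 2. The falls were Gfi1, Cebpb, Cebpd, Fli1 and Fosl2. Gfi1, a zinc finger repressor needed for neutrophils, read 20758, 20160 and 19138 against 6114, 4649.8 and 7631 (log2 difference -1.73, SE 0.22, adjusted p = 0.00107). Cebpb, the C/EBP factor of emergency granulopoiesis, read 24339.5, 31739 and 30242 against 14152, 10151 and 12888 (log2 difference -1.22, SE 0.17, adjusted p = 0.00169). Cebpd, another C/EBP factor, read 23567, 16431 and 17935 against 10735, 7766 and 7030.4 (log2 difference -1.19, adjusted p = 0.00663). All HoxA9 clones were above all HoxA9+Meis1 clones in these 3 genes. Fli1, the Ets factor closest to Erg, fell as Erg rose: it read 20205, 19814 and 22240 against 12627, 12565 and 11231 (log2 difference -0.77, SE 0.08, adjusted p = 4.15e-04). Fosl2 gave -0.85 (adjusted p = 0.0165). The call of Fosl2 was lost with HoxA9 clone 2 and HoxA9+Meis1 clone 1 left out in turn (log2 -0.85 to -0.82, adjusted p 0.056 to 0.0632) and with 4 other settings (adjusted p 0.055 to 0.0834).

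Of the factors that rose, Gfi1b, the relative of Gfi1 in red cell and platelet progenitors, read 220.3, 758 and 147 against 2486, 2932 and 2581 (log2 difference 3.03, adjusted p = 0.0117). Gfi1b gave 3.66 without HoxA9 clone 2. Ikzf1, Ikaros, the zinc finger factor of lymphoid fate, read 13288, 12384 and 13500.5 against 26582, 25470.5 and 26108 (log2 difference 1.00, SE 0.07, adjusted p = 2.91e-05). Irf5, an interferon regulatory factor, read 908, 1058 and 1061 against 2771, 2879 and 3205 (log2 difference 1.52, adjusted p = 8.62e-04). The call of Irf5 was lost with the mean of its probe sets (adjusted p = 0.133). The clones of a group agreed closely for Ikaros. Jun, a part of the AP-1 factor, read 1840.5, 987 and 1410.3 against 2933, 4239 and 5675 (log2 difference 1.57, adjusted p = 0.00635). A few smaller rises depended on the clones: Klf2 rose by 0.86 (adjusted p = 0.0454), Runx3 by 0.74 (adjusted p = 0.0108) and Hhex by 0.51 (adjusted p = 0.0193). The call of Klf2 was lost with HoxA9 clones 1 and 2 and HoxA9+Meis1 clones 1, 2 and 3 left out in turn (log2 0.64 to 0.97, adjusted p 0.0761 to 0.145) and with 5 other settings (adjusted p 0.0569 to 0.0919). The call of Runx3 was lost without HoxA9+Meis1 clone 2 (log2 0.65, adjusted p = 0.0513) and with the mean of its probe sets (adjusted p = 0.0742). The call of Hhex was lost with HoxA9 clones 1 and 2 and HoxA9+Meis1 clones 1 and 2 left out in turn (log2 0.44 to 0.51, adjusted p 0.061 to 0.0775) and without the intensity trend (adjusted p = 0.0768). The factors that set up the myeloid programme, Spi1 (-0.23, 95% interval -0.53 to 0.07) and Cebpa (-0.15, 95% interval -0.51 to 0.20), did not pass the test. Irf8, the monocyte and dendritic cell factor, read 10516, 37054 and 5520.4 against 22835, 25575 and 16731 and did not pass (log2 difference 0.73, adjusted p = 0.501), with HoxA9 clone 2 above all other arrays.

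**Figure D4:**
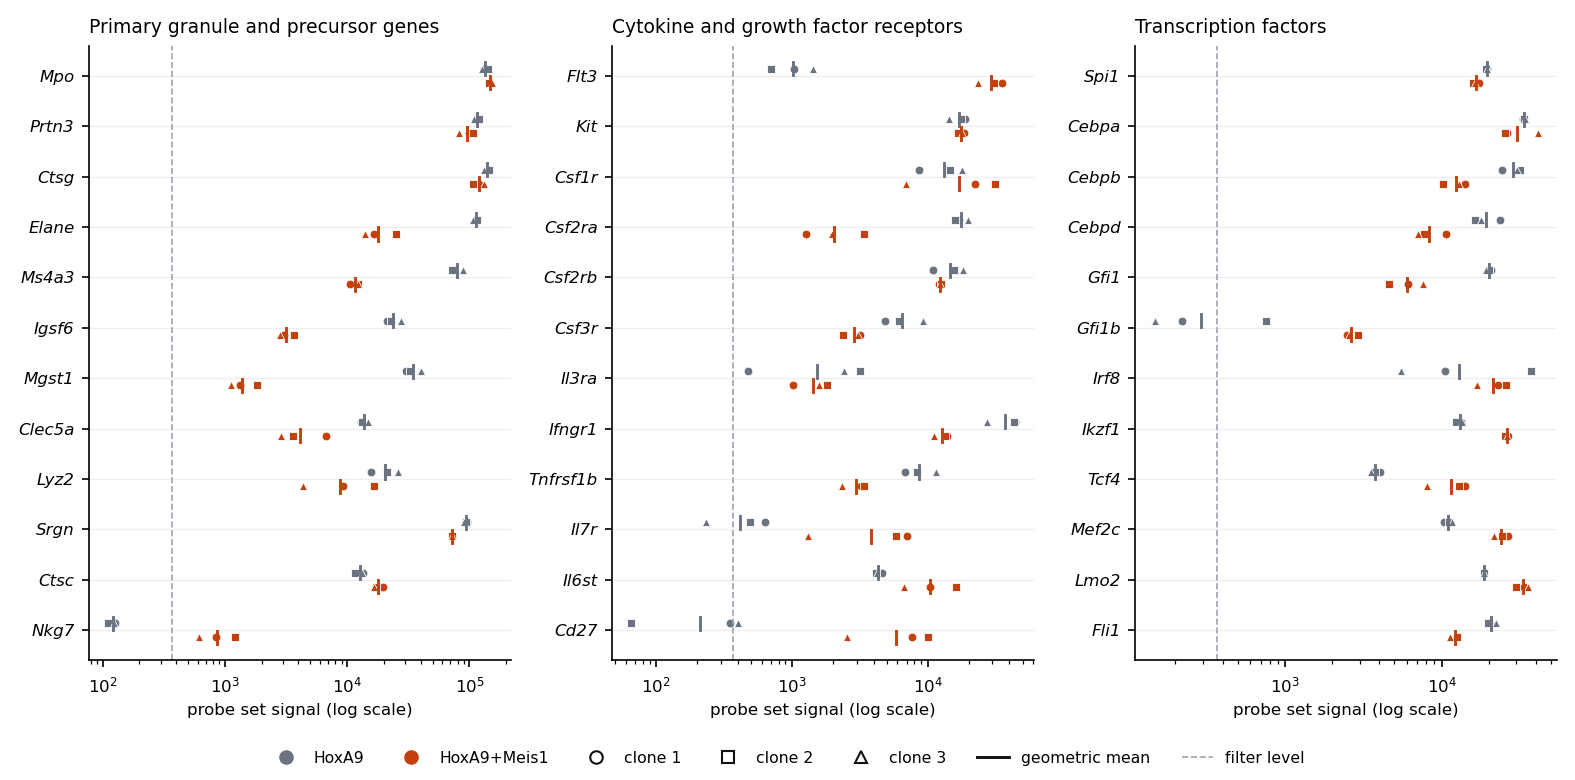
Signal of primary granule and precursor genes, receptors and transcription factors (3 panels, log horizontal axis) in each HoxA9 clone (grey) and each HoxA9+Meis1 clone (orange), with clones 1, 2 and 3 as circle, square and triangle. Elane, Csf2ra and Gfi1 fell with no overlap between the groups, Flt3 and Ikzf1 rose, and Mpo stayed between 126200 and 151814 in all 6 arrays.

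Genes of monocytes and macrophages rose in part: of 19, 3 rose and 1 fell, with Csf3r as the fall, a median of 0.33 and a summed signal of 165200 to 190340 in HoxA9 clones and 177210 to 234720 in HoxA9+Meis1 clones. Ctss, the protease that trims the class II invariant chain, read 373, 1007 and 1062 against 18951, 21811 and 14288 (log2 difference 4.55, SE 0.32, adjusted p = 3.32e-05). Cd68, a lysosomal glycoprotein of macrophages, read 3045, 2729 and 4729.5 against 12449, 11605 and 10092 (log2 difference 1.73, adjusted p = 9.47e-04). Cx3cr1, the fractalkine receptor, read 458, 962 and 737 against 4600.4, 5098 and 1593 (log2 difference 2.23, adjusted p = 0.0171). The call of Cx3cr1 was lost with HoxA9 clone 1 and HoxA9+Meis1 clones 1 and 2 left out in turn (log2 1.93 to 2.00, adjusted p 0.0534 to 0.0754) and without the intensity trend (adjusted p = 0.0561). The defining markers were not called: Csf1r, the M-CSF receptor, read 8654, 14695 and 17945 against 22191, 31553 and 6953 (log2 difference 0.36, adjusted p = 0.761), Cd14 gave 0.91 (adjusted p = 0.125), and Adgre1 read 1096, 2766 and 2749.7 against 2068, 3002 and 3482. HoxA9+Meis1 clone 3 was the lowest of all 6 arrays for Csf1r and the other HoxA9+Meis1 clones were the highest. The part of such cells in the result was not tested.

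Of 15 secondary granule and mature neutrophil genes, 2 rose and 0 fell (1 at an unadjusted p under 0.05; median 0.06), and the summed signal was 18903 to 94074 against 16257 to 104490, so the ranges overlapped. Besides S100a9, Mmp8, the neutrophil collagenase, rose: it read 377, 482 and 831 against 3936, 10186 and 2259.7 (log2 difference 3.00, adjusted p = 0.00303). Mmp8 gave 2.41 without HoxA9+Meis1 clone 2. The partner of S100a9, S100a8, read 11141, 31060.2 and 60118 against 40092, 30531 and 2819 and was not called (log2 difference -0.86, adjusted p = 0.685). Ngp, a defining granule protein, read 1403, 1365 and 1082 against 11961, 6332 and 1688 (log2 difference 1.96, adjusted p = 0.0823). Ltf, lactoferrin, lay between 557 and 1057 and Camp, cathelicidin, at or below 117, which is near background. Lcn2 (691, 2722 and 10088 against 1199, 855 and 812) varied more between clones of 1 group than between the groups. Chil3 read 195, 2647 and 1929.7 against 36.8, 296 and 34.1. It had the lowest log2 difference of the list, -3.21, without a call, and HoxA9 clone 1 lay below HoxA9+Meis1 clone 2.

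Of 15 B lymphoid genes 2 rose and 0 fell (5 and 0 at an unadjusted p under 0.05), with a median of 0.74, and the summed signal was 12788 to 21137 in HoxA9 clones and 41520, 41340 and 19127 in HoxA9+Meis1 clones 1, 2 and 3. The genes called were Il7r and Tcf3, the E protein that starts the B lineage, which read 5233, 5451 and 4759 against 8251, 9018 and 8609 (log2 difference 0.74, adjusted p = 0.00193). Vpreb1, a surrogate light chain, read 372, 98.1 and 95.3 against 3731, 2893 and 317 and was not called (log2 difference 3.05, adjusted p = 0.0622). Igll1 (142, 831 and 238 against 1724, 4239 and 296) and Cd79b (1266, 150.1 and 219 against 6294, 3311 and 305), parts of the early B cell receptor, were also lowest in clone 3 of the HoxA9+Meis1 clones and had no call. Without HoxA9+Meis1 clone 3, 5 of the B lymphoid genes were called higher. The defining markers stayed low: Cd79a read 525, 456 and 313 against 729, 1122 and 345, and Pax5 lay between 482 and 1097 in all 6 arrays. The part of lymphoid cells in these values was not tested.

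Of 19 genes of dendritic cells and class II presentation, 4 rose and 0 fell (5 and 1 at an unadjusted p under 0.05), with a median of 0.71 and a summed signal of 28840 to 58393 in HoxA9 clones against 71172 to 108900 in HoxA9+Meis1 clones. Flt3, which dendritic cells need, was among them. Itgax, the integrin CD11c, read 313, 885 and 680.3 against 9914, 7384 and 2274 (log2 difference 3.19, adjusted p = 0.00469). Itgax gave 3.82 without HoxA9+Meis1 clone 3. Tcf4, the E protein of plasmacytoid dendritic cells, read 4027, 3746 and 3562 against 14171, 12973 and 8117 (log2 difference 1.59, adjusted p = 0.00636), and 5 of its 6 probe sets were called. H2-Oa, a regulator of peptide loading, read 1027, 1160.0 and 1803 against 3355, 3067 and 3831 (log2 difference 1.38, adjusted p = 0.00625). The class II molecules did not follow: H2-Aa read 555, 728 and 757 against 112, 516 and 182 and Cd74, the invariant chain, read 702, 809 and 1056 against 1681, 2147 and 783 (log2 difference 0.73, adjusted p = 0.239), neither of them called. Siglech, the receptor that defines plasmacytoid dendritic cells, read 347, 613 and 655 against 2207, 2389 and 569 and was not called (log2 difference 1.43, adjusted p = 0.271), with HoxA9+Meis1 clone 3 inside the range of HoxA9 cells. The part of dendritic cells in these values was not tested.

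**Figure D5:**
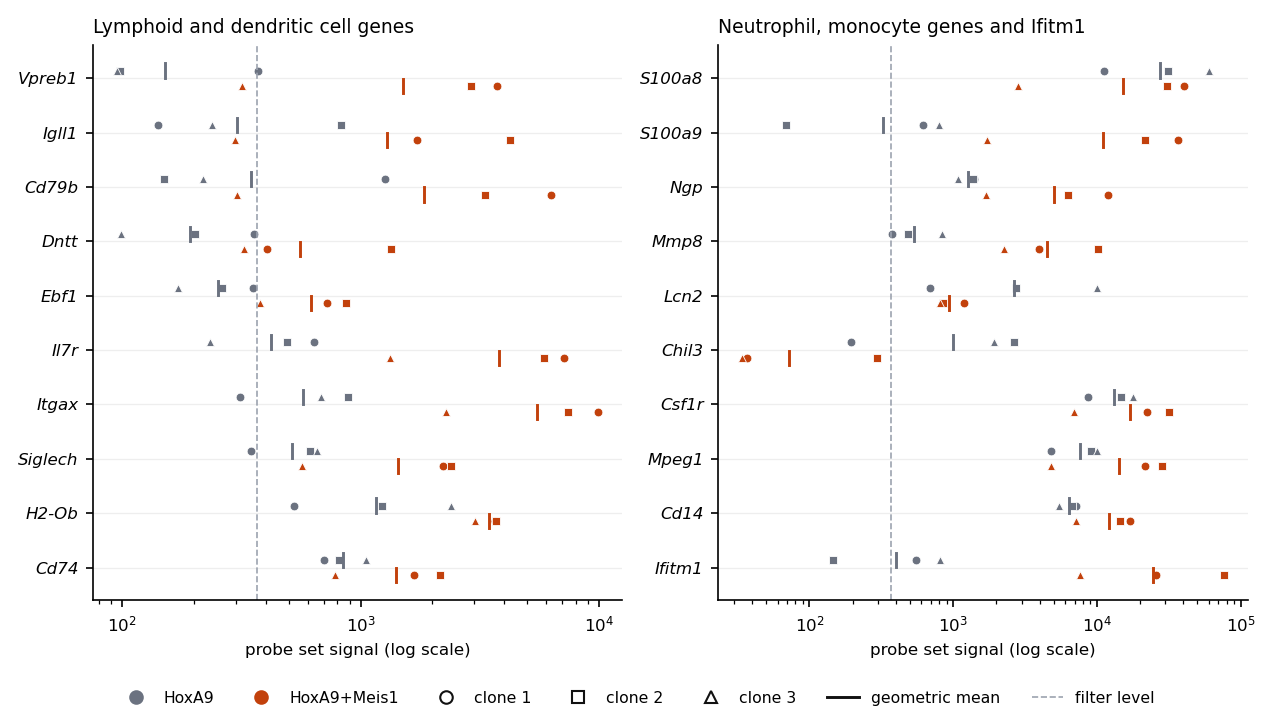
Signal of lymphoid and dendritic genes and of neutrophil and monocyte genes (log horizontal axis) in each clone, with HoxA9 in grey, HoxA9+Meis1 in orange and clones 1, 2 and 3 as circle, square and triangle. For most lymphoid genes, such as Vpreb1, Cd79b and Il7r, HoxA9+Meis1 clone 3 lies nearer to the HoxA9 clones than clones 1 and 2 do.

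Markers of other lineages were described in the same way. Of 15 genes of mast cells, eosinophils and basophils, 0 rose and 0 fell by limma's adjusted p (2 and 0 at an unadjusted p under 0.05; summed signal 24593 to 38574 in HoxA9 clones and 46688 to 61862 in HoxA9+Meis1 clones), and without 1 clone or under the other settings at most 1 was called. The basophil protease Mcpt8 read 8167, 4196 and 2854 against 21370.3, 11279 and 8816 (log2 difference 1.47, adjusted p = 0.189) and the mast cell protease Cpa3 read 844, 724 and 754 against 946, 221 and 2927. Of 13 T, NK and innate lymphoid genes 0 were called by limma, 0 at an unadjusted p under 0.05 and 0 under any alternative run, and Cd3e and Cd3g were under the filter. Of 16 erythroid genes 1 rose, Gfi1b, while Klf1 lay between 948 and 1627 and Alas2 was not tested. Of 15 megakaryocyte genes 2 rose (Plek and Gfi1b) and 2 fell (Fli1 and Thbs1), and the summed signal was 102370 to 134080 in HoxA9 clones and 82536 to 95287 in HoxA9+Meis1 clones. Plek, the platelet kinase substrate pleckstrin, read 685, 1445 and 1255 against 11042, 10348 and 15789.6 (log2 difference 3.46, SE 0.29, adjusted p = 1.09e-04), while Thbs1, thrombospondin 1, read 22385, 46734 and 47589 against 945, 1865 and 8415 (log2 difference -3.88, adjusted p = 0.00402). Thbs1 gave -3.20 without HoxA9+Meis1 clone 1 and -4.76 without HoxA9+Meis1 clone 3. Itga2b, which defines the platelet lineage, gave a log2 difference of 0.00, with all arrays between 2737 and 3245. Of 13 genes of stroma, endothelium and fat 1 rose, Pecam1, and Col1a1 and Cdh5 stayed at or below 589.

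Of 38 integrins and other adhesion genes, 9 rose and 3 fell, with a median of 0.30, and Itgax was among the rises. Without 1 clone 6 to 11 rose, the fewest without HoxA9 clone 1 or HoxA9+Meis1 clone 2. Itgb7, the integrin chain of gut homing, read 163, 299.9 and 557 against 10329.8, 7513 and 5215 (log2 difference 4.46, SE 0.39, adjusted p = 1.31e-04), a 22.1-fold rise. Its partner Itga4 read 8804, 11966 and 10725 against 28596, 28803 and 22887 (log2 difference 1.35, SE 0.16, adjusted p = 7.65e-04). Cd93, a surface lectin of early progenitors, read 5586, 5807 and 7487 against 52164, 54207 and 59990.2 (log2 difference 3.14, SE 0.11, adjusted p = 4.60e-07), and 5 probe sets were called. The spread of Cd93 within groups was small against the distance between them. Selplg, the selectin ligand of leukocytes, read 11015, 8780.4 and 9366 against 26809.7, 27014 and 20149.9 (log2 difference 1.33, adjusted p = 3.78e-04). Itga1, a collagen receptor chain, read 128, 148 and 90.0 against 1450.0, 1191 and 1826 and was at least 3.74-fold higher (adjusted p = 0.00276). Sdc2, the proteoglycan syndecan-2, fell: it read 6621, 4454 and 3436 against 784, 881 and 585 (log2 difference -2.61, adjusted p = 0.00713).

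Several adhesion calls rested on few clones. Pecam1, an adhesion molecule of endothelium and progenitors, read 479, 434 and 2872 against 6191, 6736 and 5841 (log2 difference 2.83, adjusted p = 0.0283), with HoxA9 clone 3 above the others. The call of Pecam1 was lost with HoxA9 clones 1 and 2 and HoxA9+Meis1 clones 1, 2 and 3 left out in turn (log2 2.37 to 2.88, adjusted p 0.0609 to 0.106) and without the intensity trend and with robust eBayes (adjusted p 0.084 to 0.0852), and its log2 difference was 3.69 without HoxA9 clone 3. Sdc1 rose by 2.52 (adjusted p = 0.0434) and Cd47 by 0.60 (adjusted p = 0.018). The call of Sdc1 was lost with HoxA9 clones 1, 2 and 3 and HoxA9+Meis1 clones 1 and 2 left out in turn (log2 1.71 to 2.85, adjusted p 0.065 to 0.132) and with 4 other settings (adjusted p 0.0503 to 0.108). The call of Cd47 was lost with HoxA9 clone 1 and HoxA9+Meis1 clones 1 and 2 left out in turn (log2 0.50 to 0.62, adjusted p 0.0531 to 0.0681) and after a shift of the arrays to a common median and without the intensity trend (adjusted p 0.0783 to 0.156). Cd82 gave -0.56 (adjusted p = 0.0332) and Itgav -0.31 (adjusted p = 0.042). The call of Cd82 was lost with HoxA9 clones 2 and 3 and HoxA9+Meis1 clones 1, 2 and 3 left out in turn (log2 -0.61 to -0.44, adjusted p 0.0675 to 0.114) and with 4 other settings (adjusted p 0.0893 to 0.322). The call of Itgav was lost with HoxA9 clones 1, 2 and 3 and HoxA9+Meis1 clones 1, 2 and 3 left out in turn (log2 -0.35 to -0.27, adjusted p 0.0742 to 0.158) and with 5 other settings (adjusted p 0.0505 to 0.76). With the mean of its probe sets Itgav turned to 0.19.

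Chemokines rose in part, with 3 of 22 genes higher and 0 lower (5 and 1 at an unadjusted p under 0.05; median 0.05). Ccl3, a chemokine for monocytes and lymphocytes, read 2451, 4841 and 3584 against 15779, 11904 and 24101 (log2 difference 2.23, adjusted p = 0.00183) and was higher in every HoxA9+Meis1 clone. Ccl4, its neighbour and relative, rose by 0.66 (adjusted p = 0.044). The call of Ccl4 was lost with HoxA9 clones 1, 2 and 3 and HoxA9+Meis1 clones 1 and 3 left out in turn (log2 0.55 to 0.70, adjusted p 0.0953 to 0.17) and with 4 other settings (adjusted p 0.0546 to 0.139). The third was Cx3cr1, described above.

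Of 22 immediate early genes, which cells switch on within minutes of a signal, 5 rose and 1 fell, with a median of 0.59, and Jun, Klf2 and Fosl2 were among them. Zfp36, an RNA-binding protein that destabilises cytokine messages, read 1093, 1911 and 2144 against 7305, 7683 and 8345 (log2 difference 2.21, SE 0.24, adjusted p = 4.29e-04). Ier5, a regulator of the heat shock response, read 851, 401 and 461 against 2556, 2916 and 2193 (log2 difference 2.16, adjusted p = 0.00113). Dusp1, a phosphatase of MAP kinases, read 646, 575 and 602 against 1398, 1219.8 and 1819 (log2 difference 1.22, adjusted p = 0.00648). In these genes and in Jun no HoxA9 clone reached the lowest HoxA9+Meis1 clone. Of 21 genes of MAP kinase feedback and STAT5 targets 3 rose and 0 fell (7 and 0 at an unadjusted p under 0.05; median 0.38), and 1 or 2 rose when a clone was left out. Dusp2, a nuclear phosphatase, read 4083, 3902 and 3860.3 against 9744, 9118 and 8645 (log2 difference 1.21, adjusted p = 0.00919). Socs2, a suppressor of cytokine signalling, rose by 1.92 (adjusted p = 0.042) and Spred2 by 0.38 (adjusted p = 0.0333). The call of Socs2 was lost with HoxA9 clones 2 and 3 and HoxA9+Meis1 clones 1 and 3 left out in turn (log2 1.56 to 1.81, adjusted p 0.117 to 0.16) and with 4 other settings (adjusted p 0.05 to 0.221). The call of Spred2 was lost with HoxA9 clones 1, 2 and 3 and HoxA9+Meis1 clones 1, 2 and 3 left out in turn (log2 0.33 to 0.41, adjusted p 0.0608 to 0.131) and with 4 other settings (adjusted p 0.0804 to 0.854).

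In the TGF-beta and BMP pathway 3 of 21 genes fell and 1 rose (median -0.12). The falls were Tgfbr3, Smad1 and Acvr2a. Smad1, a transducer of BMP signals, read 4233, 1319 and 1651 against 294, 198 and 505 (log2 difference -2.64, SE 0.44, adjusted p = 0.00457), and 3 of its probe sets were called. Acvr2a, an activin receptor, fell by 1.09 (adjusted p = 0.0149). The call of Acvr2a was lost with HoxA9 clone 2 and HoxA9+Meis1 clone 2 left out in turn (log2 -1.01 to -0.97, adjusted p 0.0628 to 0.0834). Smad5 rose by 0.61 (adjusted p = 0.0455). The call of Smad5 was lost with HoxA9 clones 1, 2 and 3 and HoxA9+Meis1 clones 1, 2 and 3 left out in turn (log2 0.48 to 0.73, adjusted p 0.0505 to 0.141) and with 5 other settings (adjusted p 0.056 to 0.117). The ligand Tgfb1 (0.02, 95% interval -0.15 to 0.20) and the signalling receptors Tgfbr1 (0.33) and Tgfbr2 (0.25) did not pass the test. Of 31 Wnt and Notch genes 1 rose, the Notch effector Rbpj (0.58, adjusted p = 0.00468). The call of Rbpj was lost after a shift of the arrays to a common median and with the mean of its probe sets (adjusted p 0.0725 to 0.08).

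Lipid mediator genes changed at the receptors and at 1 enzyme: of 18 genes 3 were called higher and 1 lower, and 1 of the 3 was near background throughout. Ltb4r1, the high-affinity leukotriene B4 receptor, read 23.9, 39.9 and 379 against 1684, 1611 and 849 (log2 difference 3.52, adjusted p = 0.0113), with HoxA9 clone 3 above clones 1 and 2. The call of Ltb4r1 was lost with the clone number as a block (adjusted p = 0.066). Its log2 difference was 4.42 without HoxA9 clone 3, a size that is not fixed, since HoxA9 clones 1 and 2 were near background. Ptger4, a prostaglandin E2 receptor, read 107, 392 and 114 against 1066, 2249.5 and 1611 (log2 difference 2.97, adjusted p = 0.00323). Ptger3, another such receptor, was called (adjusted p = 0.0175) but lay under the filter level in all 6 arrays, so no size is given. The call of Ptger3 was lost with HoxA9+Meis1 clones 1 and 3 left out in turn (adjusted p 0.0568 to 0.0627). Lta4h, the enzyme that makes leukotriene B4, read 73399, 53635 and 55232 against 21195, 21577 and 20688 (log2 difference -1.51, adjusted p = 0.00655). A pair of further Lta4h probe sets gave -2.80, which was called, and 0.10, which was not.

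The called interferon response genes were lower, apart from Ifitm1. Of 29 genes 4 fell and 1 rose by limma (7 and 3 at an unadjusted p under 0.05), with a median of -0.13. The summed signal of the list was 70393 to 89166 in HoxA9 clones. In HoxA9+Meis1 clones 1, 2 and 3 it was 95912, 170080 and 61498, so the list as a whole was not lower. Oas1a, a sensor of double-stranded RNA, read 5403, 8209 and 11888 against 1419, 604 and 835 (log2 difference -3.13, SE 0.32, adjusted p = 3.49e-04). Gbp3, a guanylate-binding protein, read 9901, 8489 and 8496 against 3243, 4168 and 3337 (log2 difference -1.32, adjusted p = 9.18e-04). Ifih1, the RNA sensor MDA5, read 3724, 4769 and 3939 against 1529, 1799.6 and 2194 (log2 difference -1.16, adjusted p = 0.00332). Each of the 3 was higher in every HoxA9 clone than in any HoxA9+Meis1 clone. Ifit2 fell by 1.13 (adjusted p = 0.0262). The call of Ifit2 was lost with HoxA9 clones 2 and 3 and HoxA9+Meis1 clones 1 and 2 left out in turn (log2 -1.21 to -0.95, adjusted p 0.0602 to 0.1) and after a shift of the arrays to a common median and without the intensity trend (adjusted p 0.0609 to 0.0812). Ifitm3, the neighbour of Ifitm1, gave 1.12 without a call (adjusted p = 0.0896).

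Cell cycle genes moved little. Of 35 replication and mitosis genes 3 rose and 0 fell (10 and 3 at an unadjusted p under 0.05), with a median of 0.08. Mcm2, a subunit of the replicative helicase, read 20963, 17863 and 20094 against 29363, 30059 and 29006 (log2 difference 0.59, adjusted p = 0.00243). Mcm3 rose by 0.34 (adjusted p = 0.0105) and Mcm7 by 0.27 (adjusted p = 0.0307). The call of Mcm3 was lost after a shift of the arrays to a common median and without the intensity trend (adjusted p 0.0786 to 0.19). The call of Mcm7 was lost with HoxA9 clones 1, 2 and 3 and HoxA9+Meis1 clones 1, 2 and 3 left out in turn (log2 0.24 to 0.28, adjusted p 0.0583 to 0.128) and with 4 other settings (adjusted p 0.062 to 0.438). The proliferation marker Mki67 gave -0.01 (95% interval -0.25 to 0.24). Of 14 D cyclins, their kinases and inhibitors 2 rose. Ccnd1, cyclin D1, read 1049.6, 1304 and 1189.8 against 7060.0, 10248 and 2221 (log2 difference 2.18, adjusted p = 0.0117), and 3 probe sets were called. The call of Ccnd1 was lost without HoxA9+Meis1 clone 1 (log2 1.99, adjusted p = 0.0528), and its log2 difference was 2.82 without HoxA9+Meis1 clone 3. Cdkn1a, the inhibitor p21, read 2999, 2438 and 1474 against 6122, 5427 and 4449.9 (log2 difference 1.25, adjusted p = 0.00979). The call of Cdkn1a was lost with the mean of its probe sets (adjusted p = 0.0567).

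Of 14 Bcl2 family genes 2 rose. Bcl2, which protects cells from death, read 3170.5, 3878 and 3009.6 against 9033, 9579 and 7248 (log2 difference 1.35, SE 0.18, adjusted p = 0.00148), with 3 of its 4 probe sets called. Bbc3, the death-promoting protein PUMA, rose by 0.83 (adjusted p = 0.0171). The call of Bbc3 was lost with HoxA9 clone 3 and HoxA9+Meis1 clone 3 left out in turn (log2 0.68 to 0.70, adjusted p 0.0568 to 0.0602) and with the clone number as a block (adjusted p = 0.0872).

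Metabolic, ribosomal and chromatin lists had 4.76% to 9.09% of their genes called, against 9.67% of all genes. Of 21 glycolysis and pentose phosphate genes 1 fell, Pgd (-0.98, adjusted p = 0.0233). The call of Pgd was lost with HoxA9 clones 2 and 3 and HoxA9+Meis1 clones 1 and 2 left out in turn (log2 -1.02 to -0.77, adjusted p 0.056 to 0.0914) and after a shift of the arrays to a common median and without the intensity trend (adjusted p 0.0816 to 0.117). Of 22 sterol and fatty acid genes 1 rose and 1 fell: Dhcr7, the last enzyme of cholesterol synthesis, read 9226, 8995 and 7711 against 4058, 4783 and 5227 (log2 difference -0.88, adjusted p = 0.00129), and Fasn rose by 0.41 (adjusted p = 0.0412). The call of Fasn was lost with HoxA9 clones 2 and 3 and HoxA9+Meis1 clones 1, 2 and 3 left out in turn (log2 0.32 to 0.42, adjusted p 0.0987 to 0.135) and with 3 other settings (adjusted p 0.0823 to 0.287). Of 15 ribosomal protein genes 1 rose, Rps6 (0.62, adjusted p = 0.0382), and 0 fell. At limma's unadjusted p under 0.05, 8 were higher and 0 lower, against 3176 of all 14233 genes in either direction. The log2 differences of the list ran from 0.08 to 0.62 (median 0.18). Its summed signal was 1450300 to 1584500 in HoxA9 clones and 1677700 to 1776700 in HoxA9+Meis1 clones. The call of Rps6 was lost with HoxA9 clones 2 and 3 and HoxA9+Meis1 clones 1, 2 and 3 left out in turn (log2 0.53 to 0.65, adjusted p 0.0923 to 0.139) and with the mean of its probe sets and without the intensity trend (adjusted p 0.0907 to 0.37). Among 33 polycomb and trithorax genes 2 rose and 1 fell. Kdm6b, a demethylase of the polycomb mark, read 1462, 2594 and 2386 against 4694, 4593 and 4575 (log2 difference 1.14, adjusted p = 0.00443). The call of Kdm6b was lost with the mean of its probe sets (adjusted p = 0.145). Ezh2, the methyltransferase of that mark, rose by 0.34 (adjusted p = 0.0195). The call of Ezh2 was lost with HoxA9 clones 2 and 3 and HoxA9+Meis1 clones 1 and 2 left out in turn (log2 0.29 to 0.35, adjusted p 0.0556 to 0.0872) and with 3 other settings (adjusted p 0.0749 to 0.178). Aff1, an elongation scaffold and common fusion partner of MLL, read 7321, 6107 and 5597 against 3846, 3313 and 2176 (log2 difference -1.05, adjusted p = 0.00974) and so fell while its relative Aff3 rose.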

How the data were processed

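The authors deposited linear intensity values for 45101 probe sets, 1 value per array. How the software made each intensity is not given in the sources used here. Trimmed by 2% at each end, every array has a mean of 2500.01 to 2500.02, so the values were already scaled and were used as deposited. All value columns belong to samples (0 without one).

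Values were taken as log2(intensity + 32). At least 3 of 10 arrays had to exceed 369.318, the 40th percentile over the whole table, for a probe set to be kept, which left 30945. Names were taken from the array platform's annotation and brought up to date with a RefSeq table by Entrez ID: 34945 probe sets had 1 symbol, 932 several, 9160 none and 64 were controls. A gene was read from its kept probe set with the highest mean, among those with exactly 1 symbol (14233 genes; 6413 had others to choose from).

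Groups were taken from the titles. limma 3.58.1 in R 4.3.3 was fitted to all 10 arrays with 4 group means and 6 residual degrees of freedom, eBayes with an intensity trend, and Benjamini-Hochberg adjustment over all genes. The number of arrays limits the precision. The fit was also run on simulated data with independent noise for each array. Those data held no outlying clones and no shifts of whole arrays, so they cannot show how the calls fare with either. Tables and figures were made with Python 3.11.15, pandas 2.3.3 and matplotlib 3.10.9.

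The comparison, the gene lists and the rules were chosen with earlier results of these data known. Genes named are the 15 largest rises and 15 largest falls that were called with groups that do not overlap, up to 4 called members of each list, 10 genes named in advance and other members of lists described. Alternatives were offsets of 1 and 100, quantile normalization, a shift of arrays to 1 median, a filter at the 60th percentile or none, probe sets of a gene averaged, tested singly or left out where suffixed, eBayes without a trend or robust, fits of fewer arrays, the clone number as a block, and each clone left out. No genome was used, and promoter sequences are from RefSeq (GRCm38.p6).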

Additional observations from a re-analysis of the deposited data

How the results depend on the processing

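Of 99 genes chosen by rule, 92 were called, and 66 of these kept their call and direction in every alternative run that gave a value. Quantile normalization ended 1 of the 92 calls, the shift to a common median 10, averaging the probe sets of a gene 8, eBayes without a trend 16, robust eBayes 5, and the offsets 0. Itgav reversed with the mean of its probe sets, from -0.31 to 0.19 (adjusted p = 0.76). Against 1376 called genes (656 higher, 720 lower), the shift to a common median gave 759, with 313 lower, and eBayes without a trend gave 773, with 357 higher and 416 lower. Testing every probe set alone called 999 higher and 1053 lower among probe sets with 1 symbol. With 1 clone left out, 748 to 1205 genes were called, 339 to 545 higher and 375 to 660 lower. The count was lowest without HoxA9+Meis1 clone 2 and highest without HoxA9+Meis1 clone 3. Same-numbered clones did not deviate together (r = 0.00409, -0.0384 and -0.0697), and the main fit did not pair them. Such values cannot show whether these clones share an origin, which the labels do not give. The clone number as a replicate block gave 1018 called genes, 490 higher and 528 lower, of which 903 were among the 1376. With only the 6 arrays of the 2 groups, 1605 of 13247 genes were called, of which 1255 were among the 1376. Signals near background have no order among themselves, so the smallest levels are limited by the array's background.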

Other observations

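Gene families that were picked after their values were seen held further called genes, described here without a test of the family. Their counts are to be read beside the shares over all genes tested, of which 4.61% rose and 5.06% fell. Of 12 aldo-keto reductase genes 4 fell and 0 rose by limma (4 and 0 at an unadjusted p under 0.05). Akr1c13, a neighbour of Akr1c12, read 10296, 10597 and 11635 against 1047, 2834 and 1187 (log2 difference -2.80, adjusted p = 3.78e-04) and was lower in every HoxA9+Meis1 clone. Probe sets of the closely related Akr1c genes may read more than 1 of them. Among 9 S100 genes, S100a4, a calcium-binding protein of motile cells, read 106, 562 and 721 against 11404, 9629.8 and 2611 (log2 difference 4.07, adjusted p = 0.00362), and S100a1 fell: it read 14392, 15718 and 14107 against 2499, 3398 and 4325 (log2 difference -2.14, adjusted p = 0.00102). S100a4 gave 3.31 without HoxA9 clone 1 and 4.73 without HoxA9+Meis1 clone 3. Of 17 C-type lectin genes 2 rose and 3 fell. Clec7a, the fungal receptor dectin-1, read 9514, 9902 and 12003 against 2397, 2339 and 2001 (log2 difference -2.20, adjusted p = 1.38e-05), and Clec4a2 gave -2.74 (adjusted p = 9.25e-04). Clec4d, by contrast, rose by 1.33 (adjusted p = 0.00497).

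Among 27 semaphorin and plexin genes 2 rose (Sema4d and Plxnb2) and 1 fell (Sema6b), among 35 Gpr receptor genes 4 rose and 2 fell (Gpr160 and Gpr180), and among 13 P2r nucleotide receptor genes 2 rose and 0 fell by limma (2 and 0 at an unadjusted p under 0.05). These counts, too, stand beside 4.61% and 5.06% over all genes, so they are no result about the families. Sema4d, a semaphorin of lymphocytes, read 989, 1103 and 1545 against 14031, 15176 and 9674 (log2 difference 3.38, SE 0.19, adjusted p = 1.27e-05), and its clones did not overlap between groups. Gpr183, the receptor that guides B cells and dendritic cells along oxysterols, read 253, 96.1 and 86.7 against 5144, 5600.2 and 840.1 (adjusted p = 0.00316), a bound of 7.33-fold that was 13.4-fold without HoxA9+Meis1 clone 3. The call of Gpr183 was lost with an offset of 1 (adjusted p = 0.87), where the gene was read from its other probe set. P2rx3, an ATP-gated channel best known from sensory neurons, read 26.7, 182 and 146 against 8456, 2413 and 1761 (adjusted p = 0.00245), a bound of 8.32-fold, or 5.22-fold without HoxA9+Meis1 clone 1. P2ry14, a receptor for sugar nucleotides, rose by 2.58 (adjusted p = 0.00508). Hoxb3, the single one of 5 Hoxb genes that was called, fell: it read 1946, 1639 and 1675 against 699, 575 and 844 (log2 difference -1.29, adjusted p = 0.00315). Of 17 Rgs genes, which dampen G protein signals, 0 were called by limma (2 higher and 1 lower at an unadjusted p under 0.05).

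The clones differed among themselves in genes that the comparison does not call. Xist, the transcript of the inactive X chromosome, was present in all 6 cultures and lowest in HoxA9 clone 1: it read 6172, 35087 and 46774 against 19924, 15728 and 13563. HoxA9+Meis1 clone 3 was at least 4-fold below both other clones of its group for 79 genes and above both for 38, against 69 and 6 for clone 1 and 28 and 32 for clone 2.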
